A study of Mus musculus with 12 samples.

Results

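The genes described here handle vitamin A (retinol) and its active acid. They are *Rbp4*, *Ttr*, *Stra6*, *Crabp1*, *Crabp2*, *Aldh1a1*, *Aldh1a2*, *Aldh1a3* and *Cyp26b1*, 9 of the 19505 genes measured, and 79 of the 165865 probes used carry their names. The set was put together around *Rbp4*, which was picked for its very high signal in the base of the cochlea, so that its levels in the base are given as a description without a test. Cochleae of male C57BL/6 mice aged 6 weeks, dissected in RNAlater, had been cut into the apical, middle and basal turns, each with its lateral wall (stria vascularis, spiral ligament and spiral prominence) and organ of Corti. By the methods of the study, the pieces held spiral ganglion neurons as well. The 12 arrays, 4 for each turn, were each hybridized with labeled RNA made from 25 ng of total RNA. The labels name no transgene or treatment, and the groups are labeled apart only by the turn. All 4 arrays of a turn lay on 1 slide, with another slide for each turn, so turn and slide cannot be told apart in any comparison.

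Retinol travels in the blood bound to the retinol binding protein encoded by *Rbp4*, which is carried in a complex with transthyretin, the product of *Ttr*. The membrane receptor encoded by *Stra6* takes retinol up from that complex. In the cell, retinol is oxidized to retinal, the retinaldehyde dehydrogenases (*Aldh1a1*, *Aldh1a2*, *Aldh1a3*) make retinoic acid from it, the cellular binding proteins (*Crabp1*, *Crabp2*) carry retinoic acid, and the hydroxylase *Cyp26b1* breaks it down. Retinoic acid acts through nuclear receptors, and it is known in the inner ear mainly for its part in development.

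*Rbp4* was measured by 6 probes of 60 bases on the minus strand of chr19:38191120-38199702 (mm9, here and for every probe position). The sequences of the 4 probes between the first and the last are shown as examples of those that carry the signal that sets the base apart. The array lists them, and probe 6, for both RefSeq transcripts of the gene. They are numbered from the 5′ end of the gene and read 5′ to 3′.
Probe 2, chr19:38199009-38199068: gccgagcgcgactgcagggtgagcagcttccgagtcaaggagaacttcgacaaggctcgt
Probe 3, chr19:38198817-38198876: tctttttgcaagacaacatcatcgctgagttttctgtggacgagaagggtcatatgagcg
Probe 4, chr19:38198519-38198578: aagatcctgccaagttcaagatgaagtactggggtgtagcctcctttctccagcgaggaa
Probe 5, chr19:38192827-38192886: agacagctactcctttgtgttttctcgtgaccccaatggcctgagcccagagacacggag

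Probe 1 is listed for only 1 of these transcripts, and RefSeq gives *Rbp4* a pair of transcription starts 510 bases apart. The 250 bases before each start are shown because the first probe and the others differed in size of response, as described with the probe values. They are RefSeq sequence of GRCm38.p6, a build other than that of the probes, on the minus strand, and capitals mark the letters TATAAA.
Upstream start, chr19:38125322-38125571: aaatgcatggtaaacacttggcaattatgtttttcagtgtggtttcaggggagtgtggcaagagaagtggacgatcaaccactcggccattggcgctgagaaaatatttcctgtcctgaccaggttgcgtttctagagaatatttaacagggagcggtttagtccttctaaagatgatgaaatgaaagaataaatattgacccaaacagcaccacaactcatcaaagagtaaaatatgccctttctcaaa
Downstream start, chr19:38124812-38125061: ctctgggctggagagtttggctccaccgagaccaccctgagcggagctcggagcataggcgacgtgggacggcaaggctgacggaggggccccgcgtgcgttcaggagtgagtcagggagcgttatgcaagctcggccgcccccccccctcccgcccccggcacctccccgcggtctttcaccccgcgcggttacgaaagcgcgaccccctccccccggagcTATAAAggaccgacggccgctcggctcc
TATAAA begins 28 bases before the downstream start and was not found before the upstream start. Searched on both strands of windows of 300 bases (250 before and 50 after a start), it was present in 13.6% of the 32851 windows of all genes. The half-site AGGTCA, one form of the letters that retinoic acid receptors bind, was found in 16.3% of the windows, and neither it nor a direct repeat of it with a spacer of 5 bases (present in 0.00913% of all windows) was in the windows of *Rbp4*, *Cyp26b1*, *Crabp1*, *Stra6*, *Aldh1a1* or *Aldh1a2*.

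A signal here is the background-subtracted brightness of a spot after each array was scaled to a common 75th percentile, and a gene's signal is the geometric mean over its probes. Brightness differs between probes for reasons other than the amount of RNA, so signals are compared between turns and not between genes. Before scaling, the arrays had 75th percentiles between 534.6 and 722.1, with 77.4% to 81.4% of spots well above background. The lowest signal of a probe well above background was between 24.7 and 35.8, depending on the array. All 8 hair cell, 8 supporting cell, 8 strial marginal cell, 8 strial intermediate cell and 6 spiral ligament fibrocyte genes were above background. Above background means that at least 1 probe of the gene stood well above it across the 4 arrays of some turn. By that rule 16503 of the 19505 genes were above background, among them all 8 choroid plexus and all 8 bone genes listed and on the array. These counts therefore do not test whether the tissue matched its labels. In pieces of whole tissue, fewer cells of a type and less RNA per cell cannot be told apart.

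*Rbp4* was near background in the apex and bright in the base. Its signal was 27.8, 22.5, 30.6 and 35.6 on the apex arrays 1 to 4. On the middle arrays it was 42.7, 47.0, 87.4 and 99.0. On the base arrays it was 5302, 7121, 4527 and 8898. The arrays of the 3 turns did not overlap, and within the base the signal spread 1.97-fold. The base mean of 6460 ± 1950 (SD, n = 4) stood 217-fold above the apex (log2 difference, apex minus base, -7.76) and 96.7-fold above the middle turn (-6.60). These sizes were what the gene was picked for. With the normexp background correction, which raises dim signals, the difference between apex and base was -5.86, and the sign was the same in all 28 alternatives that gave a value. In the apex only 3 of the 6 probes were well above background on every array. With dimmer signals raised to the lowest signal of a probe well above background on the same array, an alternative added after the values were seen, the base was 137-fold above the apex and 79.1-fold above the middle turn.

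The comparison that did not enter the choice of *Rbp4* is that of apex and middle. The middle turn was 2.25-fold higher (log2 difference, apex minus middle, -1.17, SE 0.3, limma adjusted p = 0.03), with each middle array above each apex array. The call was lost in 8 of 33 alternatives, among them those without apex array 1 (-1.15, adjusted p = 0.068), apex array 2 (-1.05, 0.089), apex array 3 (-1.20, 0.061) or middle array 4 (-0.96, 0.082). It was also lost with the normexp correction (-0.49, adjusted p = 0.097), with 16 added to each signal (-0.76), with the mean of linear signals (-0.86) and with dim signals raised to the floor (-0.79).

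All 6 probes of *Rbp4* were brighter on each base array than on any apex array. Probe 1 had a mean of 62.8 ± 23 in the apex, 81.6 ± 2.8 for the middle turn and 387 ± 110 for the base (SD, n = 4), which makes the base 6.26-fold higher than the apex. Probes 2 and 3 were not well above background on any apex array, and their base means of 5230 ± 1600 and 6510 ± 2100 were at least 192-fold and at least 238-fold higher. A bound of this kind sets the bright turn against the lowest signal of a probe well above background on each dim array. In the middle turn, probes 2 and 3 were each well above background on 2 of 4 arrays. Probe 4 was 78.3-fold and probe 5 was 300-fold higher in the base than in the apex, both well above background on all 12 arrays. Probe 6, at the 3′ end, was well above background on 1 of 4 apex arrays, and its base mean was 35300 ± 9200. Against the apex signals raised to the floor where they lay under it, the base was 973-fold higher at this probe. The first probe thus stood apart from the other 5 by the size of the difference and not by its direction.

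**Figure D1:**
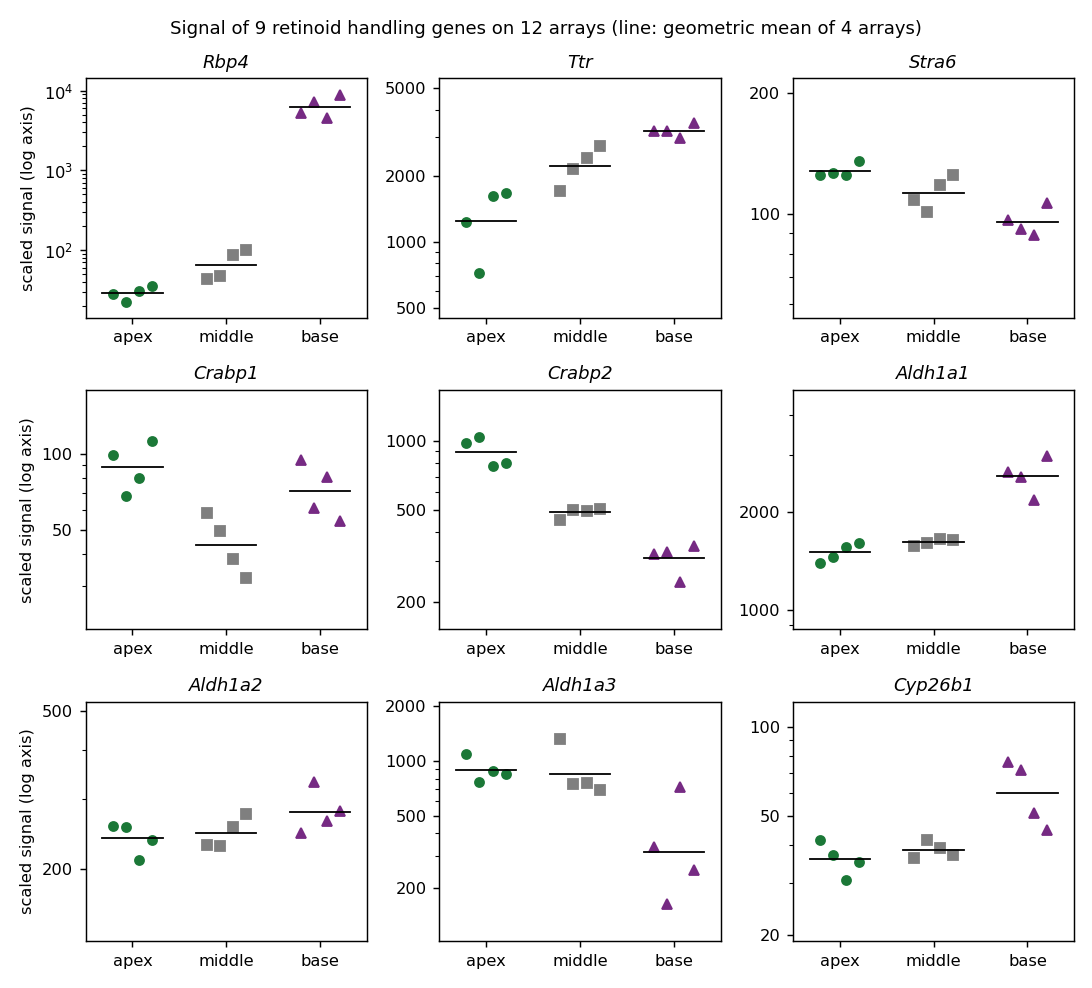
Scaled signal of each of the 9 genes (vertical log axes, a range of its own for each gene) on the 4 arrays of the apex (circles), the middle turn (squares) and the base (triangles). Horizontal lines are the geometric means of 4 arrays, and *Rbp4* runs from 22.5 on an apex array to 8898 on a base array while no other gene spans so wide a range.

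*Ttr*, whose protein carries the *Rbp4* product and thyroid hormone, was also highest in the base. Its signal was 1235, 722, 1613 and 1666 on the apex arrays, 1701, 2151, 2409 and 2740 on the middle arrays, and 3209, 3214, 2966 and 3471 on the base arrays. The turns did not overlap, and apex array 2 was the lowest of all. The base was 2.58-fold above the apex (log2 difference, apex minus base, -1.37, SE 0.24, limma adjusted p = 0.00096). The middle turn lay between, 1.78-fold above the apex (-0.83, adjusted p = 0.044), and its difference from the base, -0.53 with a 95% interval of -1.06 to -0.01, had an adjusted p of 0.13. With an array left out, the limma adjusted p for *Ttr* between apex and middle rested on which array it was. It was under 0.05 without apex array 3 (0.047), apex array 4 (0.032) or middle array 1 (0.04). Without each of the other arrays it was 0.054 to 0.12. All 4 probes were well above background on every array, and each was brighter on all base arrays than on any apex array, by log2 differences of 0.81 to 1.56.

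Within each of the 3 turns, all 6 pairs of arrays had the same order for *Rbp4* and *Ttr*. Of the 19504 other genes, 20 (0.103%) had the order of *Rbp4* in every turn, and 3.57%, 10.1% and 8.87% had it in the apex, middle turn and base taken alone. Summed marker signals had it too in some turns. The spiral prominence and outer sulcus sums had it in the middle turn (4470, 5450, 5780 and 6070 on arrays 1 to 4). They also had it in the base (6910, 7640, 6790 and 8400), and in 4 of 6 pairs in the apex. The strial intermediate cell sums had it in the middle turn (50400, 56900, 67400 and 72500), and in 5 of 6 pairs in the apex and in the base. The meninges sums had it in the base (38000, 40800, 29300 and 41300), but in 1 of 6 pairs in the apex and 3 of 6 in the middle turn. In the base the *Ttr* range was narrow, 1.17-fold, and arrays 1 and 2 were nearly tied. Both genes are strongly expressed outside the cochlea, in liver and, for *Ttr*, choroid plexus, and *Rbp4* also in fat. Of 8 hepatocyte genes none was called in any comparison, beside 4.47% of all genes between apex and base. With 8 genes, 0 calls are close to that share. Between apex and base 3 had an unadjusted and 2 an adjusted limma p under 0.05, beside 46.3% and 39.2% of all genes. The summed signal of the list was 269 to 289 in the apex and 267 to 333 in the base. *Alb* had a mean of 15.9 in the base, and *Serpina1a* was not above background. Of 8 adipocyte genes none was called either (1 at an unadjusted p under 0.05), with sums of 203 to 356 in the apex and 192 to 275 in the base, and *Lep*, *Retn* and *Fabp4* not above background. Of 8 choroid plexus genes on the array, *Clic6* was called between apex and base (2.41-fold higher in the base), and 5 of 8 had an adjusted p under 0.05 there. Between middle and base 6 of 8 had an adjusted p under 0.05, beside 20.9% of all genes. The median log2 difference of the list was -0.39 for apex minus base and -0.34 for middle minus base, and the sums were 3060 to 3320 in the apex and 3120 to 3630 in the base. The part of any of these cells in the *Rbp4* and *Ttr* signal was not tested.

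Apart from *Rbp4*, 3 of 8 members were called between apex and base, a call meaning a limma adjusted p under 0.05 and a difference of 2-fold or more. In this comparison 4.47% of all genes were called. *Crabp2* and *Aldh1a3* were higher in the apex and *Ttr* in the base. By direction, 3.32% of all genes were called with the apex higher and 1.15% with the base higher, 648 against 224 genes, and scaling to the spike-in probes turned that split to 213 against 1265. Between the middle turn and the base 1 of 8 was called, *Aldh1a3*, where 2.66% of all genes were (2.21% with the middle turn higher and 0.451% with the base higher). Between apex and middle 2 of 9 were called, *Crabp1* in the apex and *Rbp4* in the middle turn, where 0.39% of all genes were (0.267% with the apex higher and 0.123% with the middle turn higher). With the adjusted p alone 6 of 8 differed between apex and base, 3 in each direction, beside 39.2% of all genes (17.6% with the apex higher and 21.6% with the base higher). For middle against base it was 5 of 8, with 3 higher in the middle turn, beside 20.9% of all genes (11.7% and 9.21% by direction). For apex against middle it was 4 of 9, with 2 in each direction, beside 12% of all genes (4.42% and 7.59%). The median log2 difference of the 8 members between apex and base was 0.05, beside -0.04 for all genes, and the median size without sign was 0.756 beside 0.19.

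**Figure D2:**
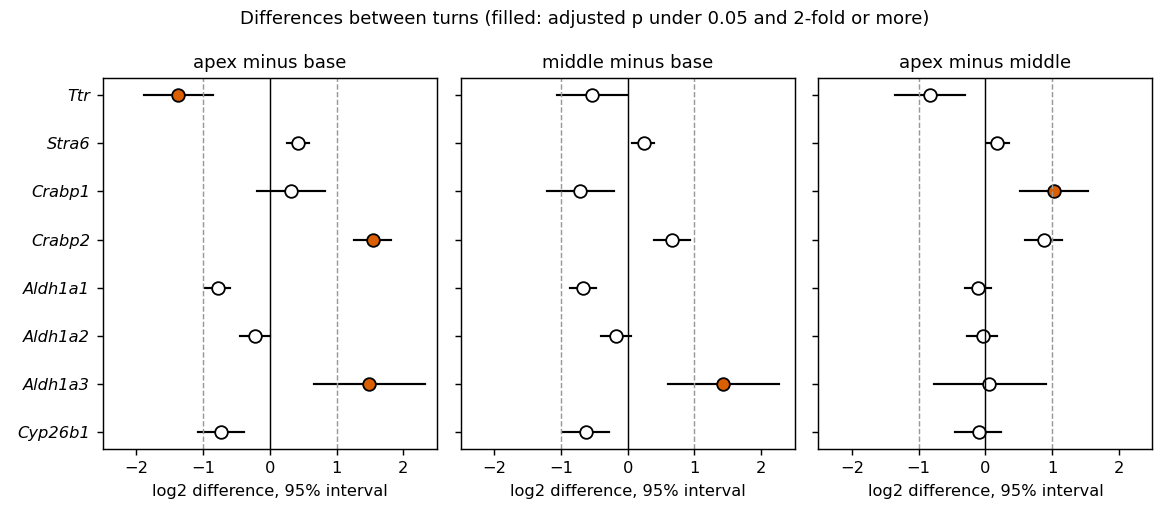
Log2 difference between turns for the 8 members other than *Rbp4*, with 95% intervals from limma, in 3 panels (apex minus base, middle minus base, apex minus middle). Filled points were called, dashed lines mark 2-fold, and the 3 filled points of the first panel are *Ttr* at -1.37, *Crabp2* at 1.54 and *Aldh1a3* at 1.49.

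*Stra6*, the uptake receptor for the *Rbp4* complex, differed little between turns at the level of the gene. Its signal was 125 to 136 in the apex, 101 to 125 for the middle turn and 88.8 to 106 for the base. The log2 difference between apex and base was 0.42 (SE 0.076, 1.34-fold, adjusted p = 0.0013), which is under 2-fold, and it turned to -0.07 with scaling to the spike-in probes and to -0.45 with the mean of linear signals (adjusted p = 7.7e-05), in which bright probes weigh most. With dim signals raised to the floor it was 0.14. The 17 probes, in chr9:57982947-58001760, did not move as one. Probe 2 from the 5′ end was bright, at 31300 to 33900 in the apex, 36900 to 42800 for the middle turn and 44100 to 48900 for the base, and the turns did not overlap. Of the other probes, 14 were lower in the base and 2 higher. Probe 17, at the 3′ end, had a mean of 569 in the apex and 364 in the base without overlap. In at least 1 turn, 11 of the 17 probes were well above background throughout. So *Stra6* had no single direction across its probes.

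*Crabp2*, which delivers retinoic acid to its nuclear receptors, stepped down from apex to middle to base. Its signal was 979, 1040, 774 and 804 on the apex arrays, 454, 501, 498 and 507 on the middle arrays, and 322, 330, 243 and 349 on the base arrays. The 3 turns did not overlap. The apex was 2.90-fold above the base (log2 difference 1.54, SE 0.12, limma adjusted p = 6.6e-06), 1.82-fold above the middle turn (0.87, adjusted p = 0.0028), and the middle turn 1.59-fold above the base (0.67, adjusted p = 0.0045). All 4 probes, in chr3:87752773-87757266, were higher on each apex array than on any base array, by log2 differences, base minus apex, of -1.74 to -1.2, and none had a higher mean in the middle turn than in the apex or in the base than in the middle turn.

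*Crabp1*, the other cellular retinoic acid binding protein, was lowest in the middle turn. Its signal was 99.2, 68.3, 80.3 and 112 on the apex arrays, 58.3, 49.5, 38.3 and 32.2 on the middle arrays, and 94.3, 60.9, 80.8 and 54.2 on the base arrays. Apex and middle did not overlap, and the base overlapped both. The apex was 2.03-fold above the middle turn (log2 difference 1.02, SE 0.23, limma adjusted p = 0.018), just past the 2-fold limit, and the call was lost in 12 of 33 alternatives. The difference was 0.33 with the normexp correction (adjusted p = 0.12), 0.51 with dim signals raised to the floor (0.062), and 0.69 both with the probes well above background alone (0.091) and with the median of probes (0.13). The call was also lost without apex array 1 (0.97, adjusted p = 0.051), apex array 4 (0.91), middle array 3 (0.96) or middle array 4 (0.88, adjusted p = 0.054). Between apex and base the 95% interval of the log2 difference, -0.19 to 0.82, held 0, and the value of 0.32 turned to -0.17 with scaling to the spike-in probes. The first of its 4 probes was not well above background on any middle or base array and was at least 1.08-fold higher in the apex than in the middle turn, and the last, well above background on all 12 arrays, had means of 471, 309 and 482 in apex, middle and base.

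Between middle and base the difference was -0.71 (95% interval -1.21 to -0.20, and -0.21 with dim signals raised to the floor) for *Crabp1* and 0.67 (0.40 to 0.94) for *Crabp2*, and the difference between the genes was not tested.

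*Aldh1a1*, a retinaldehyde dehydrogenase, was the member most like *Rbp4* in its pattern over the arrays. Its signal was 1395, 1462, 1562 and 1612 on the apex arrays, 1574, 1614, 1653 and 1647 on the middle arrays, and 2666, 2581, 2178 and 2983 on the base arrays. Each base array was above all others, while apex and middle overlapped. The base was 1.72-fold above the apex (log2 difference, apex minus base, -0.78, SE 0.086, limma adjusted p = 5.4e-05) and 1.59-fold above the middle turn (-0.67, adjusted p = 0.00051), both under 2-fold. With scaling to the spike-in probes the difference between apex and base was -1.27 (limma adjusted p = 1.5e-05) and was called. The difference between apex and middle was -0.11 with a 95% interval of -0.30 to 0.08.

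Of the 12 *Aldh1a1* probes, in chr19:20676508-20717823, 11 were brighter on each base array than on any apex array, by log2 differences of 0.62 to 0.96. Probe 1, at the 5′ end, was flat, at 4820 to 6120 in the apex, 5190 to 6010 for the middle turn and 5460 to 6700 for the base (base minus apex 0.12). *Aldh1a7*, a close relative that lies beside *Aldh1a1* on the chromosome, can share signal with it: 5 of the 12 *Aldh1a1* probes are listed by the array for the *Aldh1a7* transcript too. Those 5 probes had log2 differences, base minus apex, of 0.62 to 0.96, and the other 7 of 0.12 to 0.93. The following pair of probes is not among them and is shown as an example of how alike the genes are where both have a probe, with the 5 bases that differ out of 60 in capitals.
*Aldh1a1* probe 5, chr19:20696161-20696220: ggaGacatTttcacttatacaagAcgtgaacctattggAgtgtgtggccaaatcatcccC
*Aldh1a7* probe 4, chr19:20792186-20792245: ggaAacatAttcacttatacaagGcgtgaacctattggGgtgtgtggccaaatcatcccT
The best match of *Aldh1a1* probes was 91.7% identical in *Aldh1a7*, 82.8% in *Aldh1a3* and 81.0% in *Aldh1a2* probes, over 40 bases or more without gaps. The signal under the name *Aldh1a7* was 1.5-fold higher in the base than in the apex (log2 difference, apex minus base, -0.59, limma adjusted p = 0.00055). Its probes 1 and 9 are listed for the *Aldh1a1* transcript too, and probes 3 and 7 were well above background on no array. Probe 11, at the 3′ end, was near background, with means of 34.5, 27.7 and 29.1 in apex, middle and base. The other probes had higher means in the base than in the apex. How much of either signal came from the other transcript was not tested.

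*Aldh1a2* did not pass the test in any comparison. Its signal ran from 210 to 256 in the apex, 229 to 275 for the middle turn and 246 to 331 for the base, and the turns overlapped. The log2 difference between apex and base was -0.22, with a 95% interval of -0.45 to 0.00 (adjusted p = 0.11). With scaling to the spike-in probes it was -0.71, and the difference between middle and base was -0.45, both under 2-fold. Over all alternatives the lowest limma adjusted p was 0.00028 between apex and base and 0.017 between middle and base. All 13 of its probes, in chr9:71063711-71141501, were slightly brighter in the base than in the apex, by 0.03 to 0.40, and 1 of them did so without overlap.

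*Aldh1a3* was lower in the base and varied most among the base arrays. Its signal was 1096, 764, 882 and 845 on the apex arrays, 1326, 750.2, 757 and 692 on the middle arrays, and 336, 164, 720 and 250.1 on the base arrays. Apex and base did not overlap, while base array 3 lay above middle array 4. The spread was 4.4-fold over the base arrays, 1.92-fold over the middle arrays and 1.43-fold over the apex arrays. The apex was 2.82-fold above the base (log2 difference 1.49, SE 0.38, limma adjusted p = 0.0087) and the middle turn 2.69-fold (1.43, SE 0.38, adjusted p = 0.021). Between apex and middle the difference was 0.06 (95% interval -0.77 to 0.90), with a sign that depended on the scaling (-0.15 with the spike-in probes). All 13 probes, in chr7:73535785-73572299, were lower in the base than in the apex, 10 of them without overlap.

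The call between apex and base held without each array in turn, between 1.18 without base array 2 and 1.89 without base array 3. The call between middle and base was lost without middle array 1 (1.22, adjusted p = 0.066), base array 2 (1.11, 0.054) or base array 4 (1.32, 0.061), and with the arrays of those turns alone (adjusted p = 0.06).

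Markers of neurons moved with *Aldh1a3*. The summed signal of 8 spiral ganglion neuron genes was 44800, 35200, 43000 and 39500 on the apex arrays, 58600, 33500, 37800 and 35100 on the middle arrays, and 13600, 7610, 29400 and 10400 on the base arrays. In the base the order of the arrays by this sum (3, 1, 4, 2) was that of *Aldh1a3*, and the spread was 3.86-fold. In the apex all 6 pairs of arrays had the same order for both, and in the middle turn 5 of 6, with array 1 the highest for both. Of the 8 genes, 6 were called between apex and base, all with the higher signal in the apex: *Tubb3*, *Snap25*, *Nefl*, *Nefm*, *Calb2* and *Scn1a*. The summed signal of the 5 Schwann cell genes on the array was 12800 to 14400 in the apex, 13700 to 16400 for the middle turn and 6360 to 12300 for the base, again in the order 3, 1, 4, 2 there. None of them was called between apex and base, and all 5 had an adjusted p under 0.05, beside 4.47% and 39.2% of all genes. Against *Aldh1a3*, the Schwann cell sums had the same order in 4 of 6 pairs in the apex and 5 of 6 in the middle turn. How many of all genes, or of the other marker lists, had the *Aldh1a3* order was not counted. Whether the shared order is particular to nerve markers is therefore not known. The part of nerve tissue in the *Aldh1a3* difference was not tested.

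**Figure D3:**
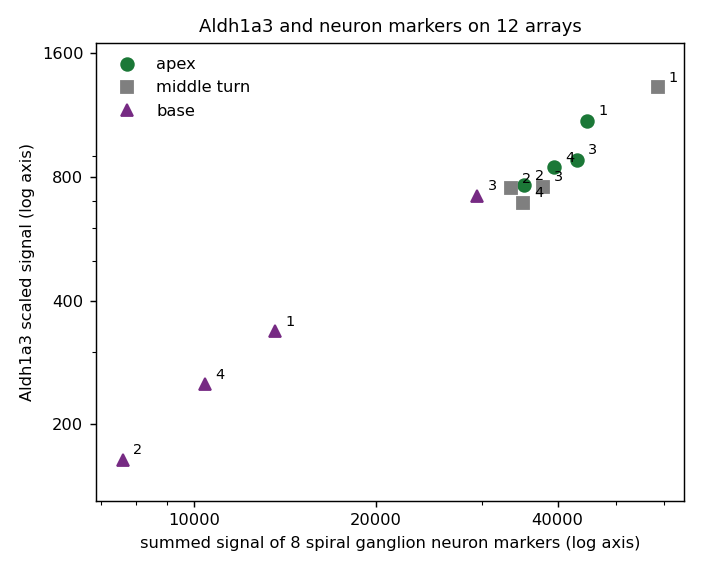
*Aldh1a3* scaled signal against the summed signal of 8 spiral ganglion neuron markers (both log axes) on 12 arrays, each point an array labeled with its number within the turn. Base arrays 1, 2 and 4 (triangles) lie at the lower left, with *Aldh1a3* between 164 and 336, and base array 3 (720) lies near the apex and middle arrays.

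*Cyp26b1*, which clears retinoic acid, was measured close to background. Its signal was 41.6, 37.1, 30.6 and 35.1 on the apex arrays, 36.3, 41.6, 39.1 and 37.2 on the middle arrays, and 75.8, 71.4, 51.5 and 45.1 on the base arrays. The base arrays lay above all others. The base was 1.66-fold above the apex (log2 difference, apex minus base, -0.73, SE 0.16, limma adjusted p = 0.0035) and 1.55-fold above the middle turn (-0.63, adjusted p = 0.017), both under 2-fold. With dim signals raised to the floor the differences were -0.33 (adjusted p = 0.0061) and -0.08 (0.42). With scaling to the spike-in probes the difference between apex and base was -1.22 (limma adjusted p = 6.9e-05) and was called. Of the 6 probes, in chr6:84521952-84537855, only probes 3 and 6 were well above background throughout any turn. Probe 3 was flat, with means of 196, 193 and 202 in apex, middle and base. Probe 6, at the 3′ end, ran from 367 to 503 in the apex, 474 to 621 for the middle turn and 666 to 1400 for the base, with the base 2.43-fold above the apex.

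**Figure D4:**
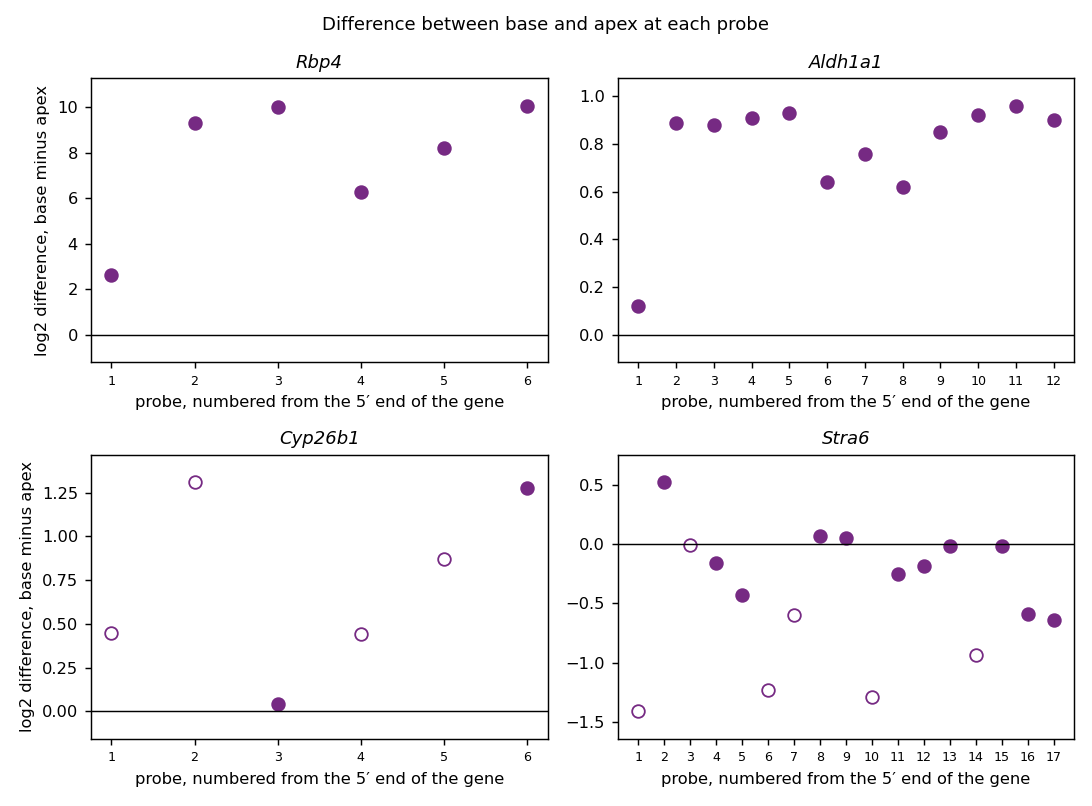
Log2 difference, base minus apex, at each probe of *Rbp4*, *Aldh1a1*, *Cyp26b1* and *Stra6* (vertical axes with a range of their own), with probes numbered from the 5′ end of the gene. Filled points are probes that were well above background throughout at least 1 turn. Probe 1 of *Rbp4* (2.65) and of *Aldh1a1* (0.12) lie below the others of their gene, and *Stra6* has points on both sides of 0.

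Beyond the members, 65 genes of retinoid uptake and storage, of retinol and retinal oxidation, of retinoic acid breakdown and transport, of its receptors and cofactors, and of its known target genes were listed, and 64 were on the array. None of the 64 was called in any comparison, in either direction, and the largest difference between apex and base was 1.89-fold. Among all genes, the called share was 4.47% for apex against base, 2.66% for middle against base and 0.39% for apex against middle. At shares this low few of 64 genes would be called, so the absence of calls says little about the list. With limma's adjusted p alone, 27 of 64 (42.2%) differed between apex and base, beside 39.2% of all genes. The same count was 15 (23.4%) for middle against base, beside 20.9% of all genes, and 12 (18.8%) for apex against middle, beside 12%. At an unadjusted p under 0.05 the counts were 29, 24 and 26, beside 46.3%, 35% and 32% of all genes. Of the 27, 13 had the higher signal in the apex and 14 the higher signal in the base, a split that depends on scaling, since the spike-in probes move the median gene from -0.04 to -0.52. The median log2 difference of the list between apex and base was -0.07. The median size without sign was 0.187 beside 0.756 for the 8 members and 0.19 for all genes.

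From each of the 5 lists 1 gene was picked after the values were seen. It was the gene with the largest difference between apex and base among those with an adjusted p under 0.05. *Lpl*, a lipase that also frees retinol from its esters in blood lipids, was higher in the base, with 190, 160, 193 and 173 against 81.3, 87.9, 82.8 and 135 in the apex (log2 difference, apex minus base, -0.92, adjusted p = 0.00091). At 1.89-fold it was not called, and it was called without apex array 4 (-1.09) and with median scaling (-1.04). *Dhrs4*, a retinal and retinol oxidoreductase, was higher in the base by 1.63-fold. The receptor gene *Rxrg* was 1.69-fold higher in the apex, with base array 3 at 203 and the other base arrays between 116 and 136. *Fabp5*, which carries retinoic acid and fatty acids, was 1.66-fold and *Rarres2*, a gene that responds to retinoids, 1.80-fold higher in the apex. Their limma adjusted p values were 0.0038 or less, and a value under 0.05 was a condition of being picked. All 5 differences kept their sign in the alternatives run. Their size did not hold everywhere: *Rxrg* was at 0.05 (adjusted p = 0.63) and *Lpl* at -0.41 with the mean of linear signals, and with scaling to the spike-in probes *Rxrg* was at 0.27, *Fabp5* at 0.24 (adjusted p = 0.24) and *Rarres2* at 0.36.

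Of 14159 genes above background with 3 or more probes, the 5 with the pattern closest to *Rbp4* over the 12 arrays were *Rasl12*, *Slc22a2*, *Osbpl6*, *Asgr1* and *Ninj2*. Likeness was the root mean square difference between profiles set to mean 0 and SD 1, which is blind to the size of a change, and it was 0.0701 for *Rasl12* and 0.134 to 0.139 for the others. Since they were chosen by a pattern that rises in the base, their values are given without a test. *Rasl12*, a small GTPase of the Ras superfamily, ran from 200 to 219 in the apex, 216 to 271 for the middle turn and 581 to 691 for the base. *Slc22a2*, an organic cation transporter, ran from 33.3 to 39.8, 48.0 to 62.7 and 148 to 212. *Ninj2*, an adhesion molecule, had the widest gap, 6.06-fold between base and apex, and *Osbpl6*, an oxysterol binding protein relative, the smallest, 1.61-fold. *Asgr1*, a subunit of the asialoglycoprotein receptor known from liver, was 2.79-fold higher in the base. All 5 differences were far below that of *Rbp4*. Among the members, *Aldh1a1* came closest (0.232, the 73rd of the 14159), followed by *Cyp26b1* (0.573), *Ttr* (0.615) and *Aldh1a2* (0.819), while *Crabp2*, *Aldh1a3* and *Stra6* were the least like it (1.81 to 1.84).

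Marker signals of several cell types differed between the turns as well. Among all genes 4.47% were called between apex and base, and 46.3% had an unadjusted limma p under 0.05. Hair cell genes had sums of 13300 to 17600 in the apex and 2860 to 5280 in the base, and 7 of 8 were called in favor of the apex: *Pou4f3*, *Slc26a5*, *Otof*, *Slc17a8*, *Ocm*, *Chrna9* and *Tmc1*. Spiral ligament fibrocyte genes had sums of 283000 to 307000 in the apex and 555000 to 618000 in the base, where *Otos* was called, and the sums of the strial intermediate cell and melanocyte list were 39900 to 46600 and 59500 to 80200, where *Mlana* was called. Of the spiral prominence and outer sulcus list only *Atp6v1g3* was called. Its mean was 212 ± 27 in the base and 13.0 ± 1.3 in the apex (SD, n = 4), where none of its 3 probes was well above background throughout, and with dim signals raised to the floor the base was 7.69-fold higher. Of the meninges list, *Zic1* and *Dcn* were called higher in the base and *Islr* in the apex, and *Foxd1* was not above background. Of 8 cartilage genes, *Acan* and *Chad* were called higher in the base and *Matn1* and *Hapln1* in the apex. Bone had *Dmp1* called in the base, and of the supporting cell list *Tectb*, *Otog* and *Sox2* were called in the apex, while the sums of that list were 171000 to 196000 in the apex and 260000 to 313000 in the base. No blood or macrophage gene was called (0 and 6 at an unadjusted p under 0.05 between apex and base, of 6 each), and the blood sums overlapped, at 35700 to 92300 in the apex and 30100 to 77400 in the base. The strial marginal cell list had none called (6 of 8 at an unadjusted p under 0.05), with sums of 18700 to 20500 and 26200 to 29900. Otoconial and vestibular genes other than *Tectb* were not called, and *Otol1* was not above background. The part of these cell types in the differences of the retinoid genes was not tested.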

How the data were processed

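The authors had scanned 12 one-color exon arrays (design on mm9) with Agilent Feature Extraction 10.7.3.1. The deposited processed intensity of each spot is background subtracted, corrected for a trend across the array and not normalized between arrays; the deposited series table holds the same values. No count or depth exists for arrays, and 4 arrays per turn limit the precision. Control spots (7914 of 180880) and flagged spots were left out (119 probes lost). Signals were scaled to the median 75th percentile (641.3), log2 transformed, and averaged over repeated spots and then over the probes of a gene name, as the methods of the study describe for exon probes. Differences were fitted over all 12 arrays with limma 3.58.1 (lmFit, eBayes) in R 4.3.3 with data.table (version 1.17.8), with Benjamini-Hochberg adjustment over 19505 genes. limma replaced the ANOVA of the methods, which was tried as an alternative. A gene was called at an adjusted p under 0.05 and a 2-fold difference or more. On simulated arrays of 19505 genes, the apex to base test recovered 43 of 50 genes shifted by 1.5 log2 units and 2 of 50 shifted by 0.75, with 4 others called. A shift of 0.75 is under the 2-fold limit, so few calls there follow from the rule. The simulated noise was drawn gene by gene, with no effect of slide or cell mixture. The members and all gene lists were chosen with earlier results of these data known. Named were all members, pathway genes called (none), the 5 genes most like *Rbp4*, and called marker genes. The 5 pathway genes were added after their values were seen. They had the largest difference per list between apex and base among genes with an adjusted p under 0.05. Of the listed genes, *Rarres1*, *Sox10* and *Slc4a5* were not analysed here. RefSeq promoter windows were matched by symbol; *Ttr*, *Crabp2* and *Aldh1a3* had none. The samples come from 4 mice in all, and which arrays of different turns share a mouse is not given in the sources used here.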

Additional observations from a re-analysis of the deposited data

Results flagged for a closer look

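In 3 of 27 sets of 4 arrays (9 genes in 3 turns), the highest or lowest array lay far from the other 3, with a gap to its nearest neighbor that, as a share of the whole range, passed Dixon's 95% critical value. Chance gives this in about 1 in 20 sets. *Aldh1a3* on middle array 1 was the highest of its turn, at 1326 beside 757 for the next (ratio 0.862). *Stra6* on apex array 4 was the highest of its turn, at 136 beside 127 (ratio 0.861). *Crabp2* on middle array 1 was the lowest of its turn, at 454 beside 498 (ratio 0.835).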

How the results depend on the processing

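Arrays have no read depth, and *Rbp4* in the apex, *Crabp1* and *Cyp26b1* rest partly on probes near background. Of 40 gene differences followed, 16 kept their sign and their side of the threshold in every alternative run. The 40 include those of the 5 genes most like *Rbp4*, chosen by a pattern that rises in the base. They also include those of the 5 pathway genes picked by their difference. The count is therefore no measure of how stable the members are. The slide as a block could not be fitted, because each slide held 1 turn.

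Members called between apex and base came to 5 with spike-in scaling and 6 with the adjusted p alone. Members called between middle and base came to 5 with the adjusted p alone, 0 with the 2 turns alone, and 0 to 1 with an array left out. Members called between apex and middle came to 1 with median scaling, with probes well above background and with the probe median, to 0 with normexp, with 16 added, with linear means and with dim signals raised to the floor (added after seeing the data), to 4 with the adjusted p alone, and to 0 to 2 with an array left out. The last was 0 without apex array 1 or middle array 4.

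Pathway genes called between apex and base came to 1 with quantile normalization, median scaling, probes well above background or the probe median, 5 with spike-in scaling, 27 with the adjusted p alone, and 0 to 1 with an array left out. With the adjusted p alone they came to 15 for middle against base and 12 for apex against middle.

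All genes called between apex and base, 872, came to 1478 with spike-in scaling, 314 with normexp, 574 with 16 added and 7645 with the adjusted p alone. Between middle and base, 519 came to 170 with normexp, 316 with 16 added and 4071 with the adjusted p alone. Between apex and middle, 76 came to 134 with spike-in scaling (29 higher in the apex against 105 in the middle turn, beside 52 and 24), 12 with normexp, 48 with 3 or more probes, 36 with 16 added, 39 with dim signals raised to the floor, 2343 with the adjusted p alone and 144 with 2-fold alone. Spike-in scaling moved the median gene to -0.52, -0.23 and -0.28 in the 3 comparisons and median scaling to -0.15 between apex and base and -0.12 between apex and middle.

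Signs turned for *Stra6* with spike-in scaling (-0.07, -0.03 and -0.03 in the 3 comparisons) and linear means (-0.45, -0.22 and -0.24), and between apex and middle with dim signals raised to the floor (-0.02). They turned for *Crabp1* between apex and base with spike-in scaling (-0.17). Between apex and middle they turned for *Aldh1a2* without apex array 3 (0.02) or middle array 4 (0.01), and for *Aldh1a3* with spike-in scaling (-0.15), linear means (-0.01), and without apex array 1 (-0.04) or middle array 4 (-0.03). With an array left out these differences ran from -0.08 to 0.02 for *Aldh1a2* and from -0.04 to 0.28 for *Aldh1a3*. The cause was not tested.

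Same-numbered arrays correlated in their deviations from the turn means by -0.037 to 0.227 (mean 0.095), with 6 of 12 pairs over 0.1. Arrays of different numbers and turns correlated by -0.261 to 0.254 (mean -0.031), with 2 of 36 pairs over 0.1. Closest to their own number in both other turns were 4 of 12 arrays. Same-numbered arrays were thus more alike on average. Whether they share a mouse is not given in the sources, so the number was used only as a block in an alternative. With the number as a replicate block, 868 genes were called between apex and base, 3 of 8 members and 0 pathway genes, as without the block for the latter 2.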
